A study of Mus musculus with 13 samples.

Results

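The circadian clock genes of the heart were described on each array of OMA1 ASO1, OMA1 ASO2 and CTRL ASO, as a check on whether the treatments differed in clock phase when the tissue was collected. The 10 genes were Arntl, Clock, Npas2, Per1, Per2, Per3, Nr1d1, Nr1d2, Dbp and Ciart, chosen by name from the gene symbols of the array annotation, with the brightest transcript cluster (the probe set of one gene) taken for each. Each had 1 cluster, so that they made up 10 of the 22206 clusters measured. All animals were C10 G58R; OMA1+/- mice aged 33 weeks, so that the controls also carried the C10 mutation and a single functional copy of Oma1. There were 5 hearts treated with OMA1 ASO1, 3 with OMA1 ASO2 and 5 with CTRL ASO, a control antisense oligonucleotide (ASO), and each heart came from a separate mouse and went on 1 Clariom S Mouse array. The ASOs were injected under the skin once a week at 50 mg/kg in adult mice, and by the stated schedule the hearts were taken after PBS perfusion and a final week of motor tests. Some OMA1 ASO mice died during the treatment, and by the paper's counts fewer survived it than the 8 OMA1 ASO hearts measured here. If those counts cover these animals, not every heart came from a survivor, and no source says which did not. The age of 33 weeks and the perfusion are those of the schedule and may not hold for every heart. The mice lived on 12 hours of light and 12 hours of dark, and no source gave the hour at which each heart was taken.

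The molecular clock is a feedback loop that runs in almost every cell, cardiomyocytes included. BMAL1, the product of Arntl, pairs with CLOCK or its relative NPAS2 and switches on genes with an E-box in their promoters, among them the Per and Cry repressors, Nr1d1, Nr1d2, Dbp and Ciart. The nuclear receptors REV-ERBα and REV-ERBβ, made from Nr1d1 and Nr1d2, repress Arntl, Clock and Npas2. These activators and some E-box targets, such as Dbp, peak at roughly opposite times of day. DBP passes the rhythm on through a separate element, the D-box, and in the heart the clock is known for its control of metabolism and of ion channels. In whole hearts, fewer cells of one type and less RNA per cell cannot be told apart.

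Promoter stretches are shown for Ciart, Per1 and Per3, the genes whose promoter windows held an E-box or a D-box. The levels of Ciart and Per1 moved together across the arrays, and those of Per3 moved with Dbp. Dbp and Nr1d2 moved together as well, and their windows held neither motif. Whether the motifs bear on these correlations was not tested. The stretches are RefSeq sequences of the mouse build GRCm38.p6, written 5′ to 3′ on the strand of the gene, and positions are counted from the start of the transcript. The Ciart stretch lies at chr3:95882255-95882356 on the minus strand (positions -128 to -27), the Per1 stretch at chr11:69098753-69098818 on the plus strand (-196 to -131) and the Per3 stretch at chr4:151044804-151044882 on the minus strand (-217 to -139). Capitals mark the E-box CACGTG in Ciart and Per1 and the D-box TTATGTAA in Per3.
Ciart: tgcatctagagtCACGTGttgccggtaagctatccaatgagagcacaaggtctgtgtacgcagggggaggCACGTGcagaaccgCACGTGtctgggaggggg
Per1: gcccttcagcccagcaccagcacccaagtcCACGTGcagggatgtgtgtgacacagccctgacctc
Per3: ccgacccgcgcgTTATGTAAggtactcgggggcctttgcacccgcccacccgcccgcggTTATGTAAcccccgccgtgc
Both motifs were searched on both strands, together with AGGTCA, the core of the site bound by REV-ERB and ROR receptors, in windows of 300 bases (250 before the start and 50 after it). The table held 13 windows of 9 of the 10 genes. The Ciart window held 3 E-boxes at positions -116, -58 and -44, where 7.15% of the 32851 windows of all genes held at least 1. Per1 had 1 E-box, at -166, in 1 of its 2 windows, and an AGGTCA at -137 on the other strand of the printed stretch. Per3 had 2 D-boxes, at -205 and -158, against 0.938% of all windows with at least 1. AGGTCA also stood in 1 of 3 Clock windows, 1 of 2 Arntl windows and the Nr1d2 window, and in 16.3% of all windows. Of the 9 genes, the E-box stood in the windows of Ciart and Per1 alone and the D-box in that of Per3 alone, so that the windows of Dbp, Nr1d1 and Nr1d2 held 0 of either. A match of letters is a description of these windows and not a measured binding site.

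The values are log2 signals as deposited, after normalization between the arrays, and a difference of 1 is a change of 2-fold in signal. A cluster was above background on an array where it exceeded the highest of the 23 background probe sets there, which lay between 5.77 and 6.07. Of the 10 genes, 7 were above background on all 13 arrays and 1 (Npas2) on 0. The arrays had medians of 5.24 to 5.34, with 9299 to 10069 clusters above background. Oma1, the gene the ASOs target, was below background on all 8 OMA1 ASO arrays, at 4.99 ± 0.40 with OMA1 ASO1 (SD, n = 5) and 4.56 ± 0.79 with OMA1 ASO2 (n = 3), against 9.41 ± 0.26 with CTRL ASO (n = 5). It was at least 10.5-fold lower with OMA1 ASO1 and at least 10.98-fold lower with OMA1 ASO2 than with CTRL ASO, with each OMA1 ASO array counted at its lowest signal above background. The 5 cardiomyocyte markers were high in all treatments, with a mean of 19.2 to 19.4 on OMA1 ASO1, 19.2 to 19.4 on OMA1 ASO2 and 19.2 to 19.3 on CTRL ASO arrays. The array of OMA1 ASO1 replicate 5 stood apart, with a mean correlation of 0.974 with its own treatment, where the other arrays had 0.984 to 0.990, and results that rest on it are given with and without it. Skeletal muscle markers (3 genes) had a mean log2 signal of 10.5 on OMA1 ASO1 replicate 1, the highest of 4.98 to 10.5 over the OMA1 ASO1 arrays, against 4.84 to 5.0 with OMA1 ASO2 and 4.73 to 5.12 with CTRL ASO. The mean of 3 smooth muscle markers was 9.42 to 10.9 with OMA1 ASO1, 8.78 to 9.08 with OMA1 ASO2 and 8.68 to 10.6 with CTRL ASO, and lymphocyte, adipocyte and liver markers were below background on all arrays.

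Arntl, the activator that has no substitute in the clock, was at 8.76, 7.16, 6.05, 6.10 and 10.57 on OMA1 ASO1 arrays 1 to 5, at 6.87, 5.66 and 5.57 on OMA1 ASO2 arrays 1 to 3, and at 7.11, 6.60, 5.26, 5.43 and 5.39 on CTRL ASO arrays 1 to 5. It was high on some arrays of every treatment and below background on others, namely OMA1 ASO2 replicates 2 and 3 and CTRL ASO replicates 3 to 5. Clock, its partner, was at 14.13, 13.44, 13.05, 12.61 and 13.56 with OMA1 ASO1, at 13.82, 13.28 and 11.97 with OMA1 ASO2, and at 14.02, 13.94, 12.69, 13.71 and 13.55 with CTRL ASO. Its highest array in OMA1 ASO1 was replicate 1, in OMA1 ASO2 replicate 1 and in CTRL ASO replicate 1, and the treatments overlapped. Npas2 lay between 3.36 and 5.21 with OMA1 ASO1, between 4.80 and 5.28 with OMA1 ASO2, and between 4.30 and 5.15 with CTRL ASO, below background throughout, so that its differences compare signals below background and no fold is read from them.

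Dbp, a transcription factor that is among the strongest E-box outputs of the clock, ran largely opposite to Arntl, with OMA1 ASO1 replicate 2 as an exception. It was at 13.23, 14.72, 14.48, 14.58 and 9.61 on OMA1 ASO1 arrays 1 to 5, at 13.80, 15.04 and 15.36 on OMA1 ASO2 arrays, and at 13.46, 13.17, 15.02, 14.79 and 14.86 on CTRL ASO arrays. The 5 arrays on which Arntl was below background carried the 5 highest Dbp signals of the 13, and the array with the most Arntl, OMA1 ASO1 replicate 5, carried the least Dbp. Per3, a Period gene that serves mainly as an output of the clock, was at 6.82, 8.12, 8.60, 8.52 and 7.18 with OMA1 ASO1, at 7.51, 8.61 and 8.72 with OMA1 ASO2, and at 7.0, 6.78, 9.19, 8.58 and 9.17 with CTRL ASO. It was low on the arrays where Arntl was high, which were replicates 1 and 5 of OMA1 ASO1, replicate 1 of OMA1 ASO2 and replicates 1 and 2 of CTRL ASO, with OMA1 ASO1 replicate 2 as an exception.

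Nr1d2, which encodes REV-ERBβ, was at 12.88, 13.86, 13.51, 13.73 and 12.77 with OMA1 ASO1, at 13.11, 13.68 and 13.99 with OMA1 ASO2, and at 13.72, 13.37, 14.19, 13.36 and 13.94 with CTRL ASO. Its low arrays were those of Dbp in both OMA1 ASO treatments but not in CTRL ASO, where replicate 4 had the lowest Nr1d2 with high Dbp and replicate 1 had little Dbp with a middle value of Nr1d2. Nr1d1, which encodes REV-ERBα, was at 10.61, 10.89, 9.22, 8.22 and 9.92 with OMA1 ASO1, at 9.40, 9.37 and 9.76 with OMA1 ASO2, and at 10.20, 9.45, 10.02, 10.34 and 9.60 with CTRL ASO. Its arrays fell in another order from those of Dbp, and OMA1 ASO1 held both its highest and its lowest value.

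Per1 and Per2 encode the repressors that close the loop, and both genes also answer to signals from outside the clock. Per1 was at 5.51, 5.65, 6.95, 7.04 and 10.03 with OMA1 ASO1, at 6.80, 7.86 and 8.78 with OMA1 ASO2, and at 6.95, 8.21, 7.76, 7.40 and 6.29 with CTRL ASO. The values of replicates 1 and 2 of OMA1 ASO1 were below background, and replicate 5 of that treatment stood 1.25 above the next highest array. Per2 was at 6.18, 6.46, 7.02, 6.10 and 7.14 with OMA1 ASO1, at 6.93, 7.73 and 8.05 with OMA1 ASO2, and at 7.19, 6.91, 7.67, 7.30 and 7.15 with CTRL ASO. OMA1 ASO1 replicates 1, 2 and 4 were below all CTRL ASO arrays for Per2, and OMA1 ASO2 replicates 2 and 3 were above them. Ciart, also called CHRONO, a repressor of the BMAL1 and CLOCK pair, was at 6.43, 7.35, 7.51, 7.30 and 9.19 with OMA1 ASO1, at 6.29, 7.89 and 9.03 with OMA1 ASO2, and at 8.81, 9.39, 8.79, 8.90 and 7.75 with CTRL ASO. OMA1 ASO1 replicates 1 to 4 and OMA1 ASO2 replicate 1 were below all 5 CTRL ASO arrays for Ciart, while OMA1 ASO1 replicate 5 was above all of them but replicate 2.

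**Figure D1:**
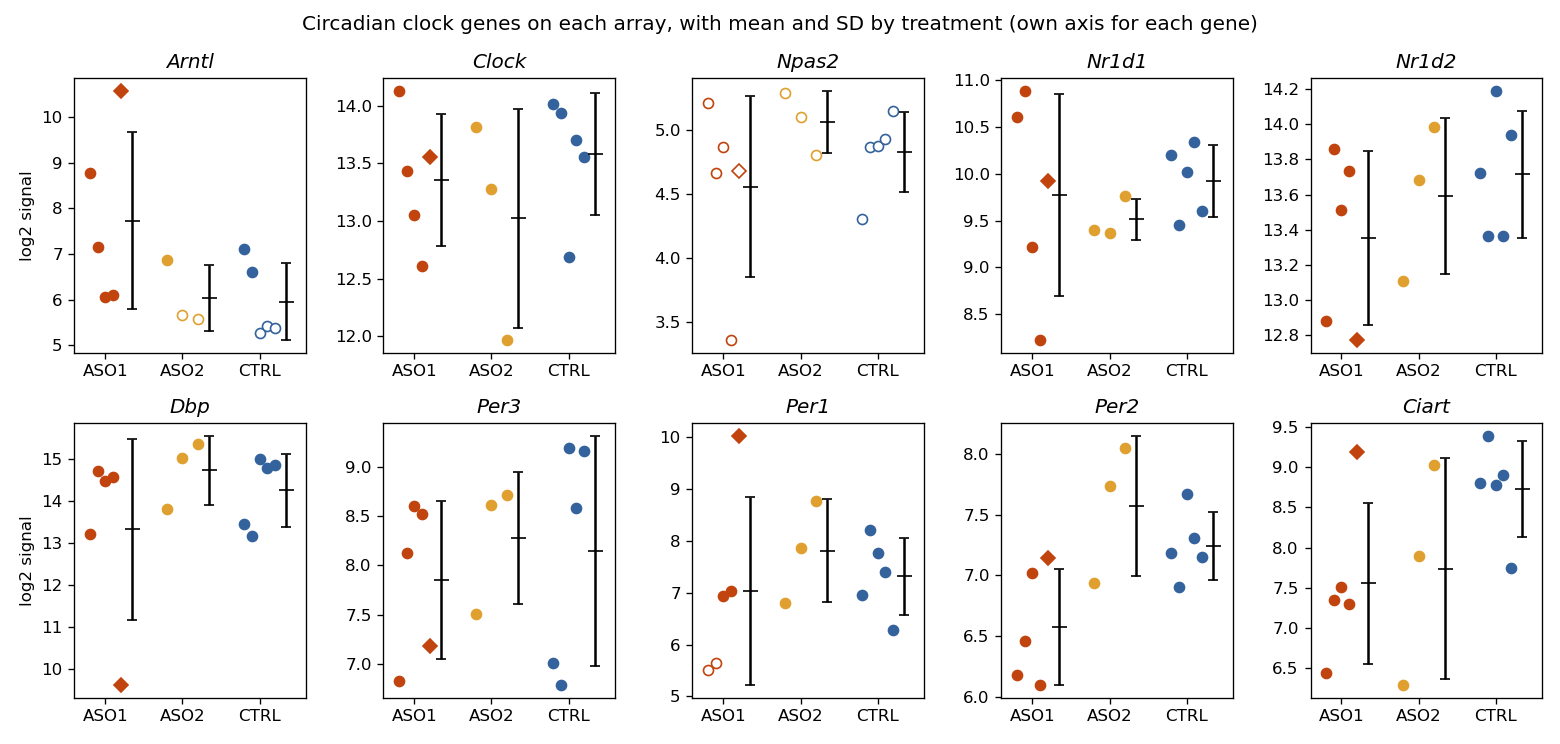
Log2 signal (y axis, with its own scale for each gene) of the 10 clock genes on each array of OMA1 ASO1 (5), OMA1 ASO2 (3) and CTRL ASO (5), in the order of replicate numbers. Filled points are above background, open points below it, the diamond is OMA1 ASO1 replicate 5 and black bars are the mean and SD, and the treatments overlap for all 10 genes.

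To ask whether the clock differed with loss of Oma1, each gene was compared between all 8 OMA1 ASO arrays and the 5 CTRL ASO arrays, with the p adjusted over all clusters. At an adjusted p under 0.01, 0 of the 10 genes were higher and 0 were lower, in a comparison in which 1.04% of all clusters were called, 0.23% as higher and 0.806% as lower (limma, Benjamini-Hochberg). At an adjusted p under 0.05 the count was also 0, at an unadjusted p under 0.05 it was 1, against 12.8% of all clusters, and the treatments overlapped for every gene, against 1.9% of clusters without overlap. Ciart had the lowest adjusted p, with 7.62 ± 1.06 on OMA1 ASO arrays (SD, n = 8) and 8.73 ± 0.60 on CTRL ASO arrays (n = 5), a log2 difference of -1.10 (SE 0.43, 95% interval -2.02 to -0.19, adjusted p = 0.274). Its difference was -1.33 without OMA1 ASO1 replicate 5 (adjusted p = 0.0748). Arntl, above background on 6 of 8 OMA1 ASO and 2 of 5 CTRL ASO arrays, averaged 7.09 ± 1.75 with OMA1 ASO and 5.96 ± 0.84 with CTRL ASO, a difference of 1.13 (interval -0.31 to 2.58, adjusted p = 0.546) that was 0.64 without OMA1 ASO1 replicate 5. Dbp averaged 13.85 ± 1.84 with OMA1 ASO and 14.26 ± 0.87 with CTRL ASO, a difference of -0.40 (interval -1.92 to 1.11) that was 0.20 without that array. By exact permutation of the arrays (two-sided, 1287 arrangements), p was 0.199 for Arntl and 0.828 for Dbp. The median difference of the 10 genes was -0.26, where that of all clusters was 0.01, and it was -0.27 over the 9 genes other than Npas2.

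The 2 OMA1 ASOs were then set apart, in comparisons that share the CTRL ASO arrays. With OMA1 ASO1 against CTRL ASO, 0 of 10 genes passed in either direction, against 0.919% of all clusters (0.198% higher and 0.721% lower), 0 were without overlap, against 3.86%, and 3 had an unadjusted p under 0.05, against 12.1%. Those were Arntl at 7.73 ± 1.93 and 5.96 ± 0.84 (log2 difference 1.77, SE 0.69, adjusted p = 0.285), Ciart at 7.56 ± 1.01 and 8.73 ± 0.60 (-1.17, SE 0.49, adjusted p = 0.340) and Per2 at 6.58 ± 0.48 and 7.24 ± 0.28 (-0.67, SE 0.25, adjusted p = 0.266), each with OMA1 ASO1 before CTRL ASO. Without OMA1 ASO1 replicate 5 these differences were 1.06 for Arntl, -1.58 for Ciart and -0.81 for Per2, with adjusted p-values of 0.375, 0.0614 and 0.107 (limma). Without OMA1 ASO1 replicate 1, the array with skeletal muscle markers, they were 1.51, -0.89 and -0.57, and the part of that tissue in them was not tested. The exact permutation p for Arntl was 0.0873 (252 arrangements), and it was 0.175 without OMA1 ASO1 replicate 5 and 0.0476 without CTRL ASO replicate 1.

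With OMA1 ASO2 against CTRL ASO, 0 of 10 genes passed, against 0.761% of all clusters (0.185% higher and 0.576% lower), 0 were without overlap, against 9.06%, and 0 had an unadjusted p under 0.05, against 11.9%. Arntl was at 6.03 ± 0.72 and 5.96 ± 0.84 (difference 0.08, interval -1.61 to 1.76) and above background on only 1 of 3 and 2 of 5 arrays, so that this difference lies largely among signals near background. Ciart was at 7.74 ± 1.38 and 8.73 ± 0.60 (-0.99, interval -2.20 to 0.21, adjusted p = 0.543), with OMA1 ASO2 before CTRL ASO. With OMA1 ASO2 against OMA1 ASO1, 0 of 10 passed, against 0.104% of all clusters (0.0675% higher and 0.036% lower), 0 were without overlap, against 4.84%, and 2 had an unadjusted p under 0.05, against 7.78%. Per2 averaged 7.57 ± 0.58 with OMA1 ASO2 and 6.58 ± 0.48 with OMA1 ASO1, a log2 difference of 1.00 (SE 0.29, interval 0.38 to 1.61, adjusted p = 0.311). Arntl averaged 6.03 ± 0.72 with OMA1 ASO2 and 7.73 ± 1.93 with OMA1 ASO1, a difference of -1.69 (interval -3.38 to -0.01, adjusted p = 0.636). An F test over the 3 treatments called 0 of the 10, against 1.01% of clusters, with the lowest adjusted p, 0.155, at Per2. The intervals were wide, and for Dbp that of OMA1 ASO2 against CTRL ASO ran from -1.38 to 2.34, so that a difference of 2-fold or more in either direction was within it.

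**Figure D2:**
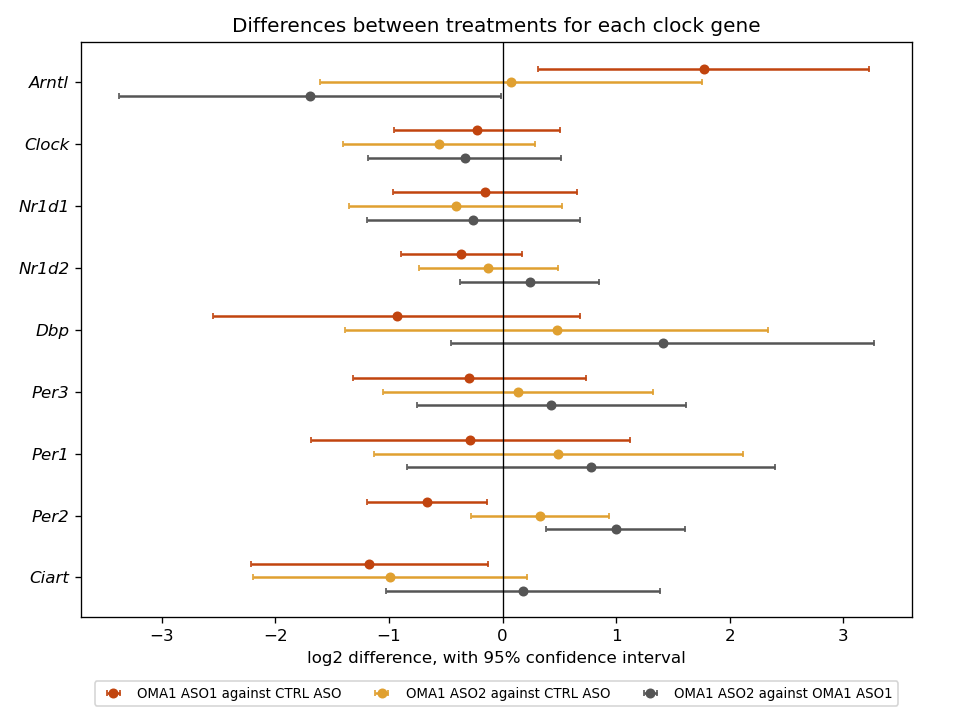
Log2 difference (x axis) with its 95% confidence interval from limma for the 9 clock genes above background on some array, in 3 comparisons of which the first 2 share the CTRL ASO arrays. The intervals of Arntl, Per2 and Ciart lie off 0 for OMA1 ASO1 against CTRL ASO, and those of Arntl and Per2 for OMA1 ASO2 against OMA1 ASO1, while 0 differences passed over all clusters.

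The arrays of one treatment differed from each other more in the clock genes than in most clusters. The clusters compared included those below background, and a comparison among expressed clusters alone was not made. The residual SD, which is the spread between arrays of the same treatment, was 1.52 for Dbp, 1.37 for Arntl and 1.32 for Per1, where the median of all clusters was 0.336. It placed 7 of the 10 genes at or above the 95th percentile of all clusters and all 10 at or above the 75th, and both counts were the same without OMA1 ASO1 replicate 5. Dbp lay at percentile 99.8, Arntl and Per1 at 99.7, Ciart and Per3 at 99.1, Nr1d1 at 97.6 and Clock at 96.1. The least variable were Nr1d2 at percentile 77.9 and Per2 at 77.6, and Npas2, at 87.0, was below background on all arrays. Without OMA1 ASO1 replicate 5, the SD of Dbp was 0.806 and that of Arntl 0.985, still at percentiles 99.2 and 99.6.

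**Figure D3:**
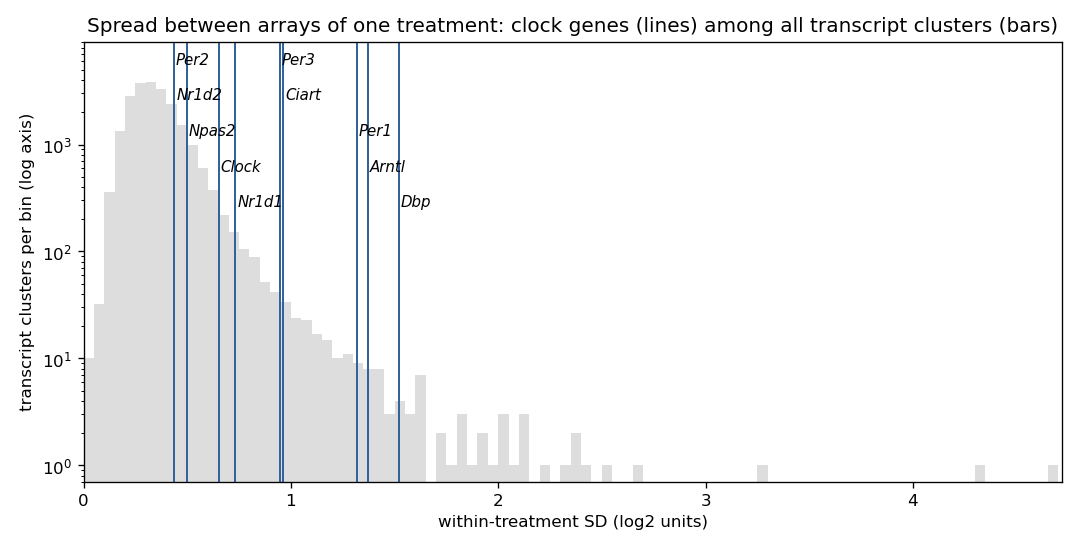
Histogram of the SD between arrays of one treatment (x axis, log2 units) for all 22206 transcript clusters (y axis, log scale), with a line for each clock gene. The median of all clusters is 0.336, and Per1, Arntl and Dbp lie at 1.32, 1.37 and 1.52.

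Phase-opposed genes were followed across the arrays after the mean of each treatment had been removed. Over the 13 arrays and 45 pairs of genes, 6 pairs passed at an adjusted p under 0.05 by Pearson's r and 9 by Spearman's rho (permutation within treatments, 100000 resamples, Benjamini-Hochberg over the 45 pairs). Arntl ran against Dbp, with r = -0.93 (permutation p = 0.00138, adjusted p = 0.0225) and rho = -0.87 (p = 0.00161, adjusted p = 0.0121). When each array was left out in turn, r lay between -0.96 and -0.87, and its adjusted p was 0.0731 without OMA1 ASO1 replicate 1 and 0.0564 without OMA1 ASO2 replicate 1. Without the 2 arrays farthest from the median of Arntl, r was -0.85 (adjusted permutation p = 0.0948). The direction thus held in each of these settings, while the call was lost in some of them, all with fewer arrays. Arntl also ran against Per3, with r = -0.78 (permutation p = 0.00202, adjusted p = 0.0225), rho = -0.83 (adjusted p = 0.0063) and r = -0.89 without the 2 farthest arrays (adjusted p = 0.0144).

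Clock sided with Arntl, with r = 0.61 (permutation p = 0.0221, adjusted p = 0.0993) and rho = 0.76 (adjusted p = 0.0063), and r was 0.78 without OMA1 ASO1 replicate 5 (adjusted p = 0.0364). It ran against Per3, with r = -0.73 (permutation p = 0.0030, adjusted p = 0.0225), rho = -0.84 (adjusted p = 0.0036) and r = -0.78 without the 2 arrays farthest from its median (adjusted p = 0.0389). On the other side, Dbp moved with Nr1d2 (r = 0.75, permutation p = 0.00194, adjusted p = 0.0225, rho = 0.86) and with Per3 (r = 0.68, permutation p = 0.00287, adjusted p = 0.0225, rho = 0.71). Without the 2 farthest arrays r was 0.71 for Nr1d2 and 0.67 for Per3, and neither passed (adjusted permutation p = 0.170 for both). Without OMA1 ASO1 replicate 5, Dbp and Per3 had r = 0.96. Of the 7337 clusters ranked by likeness to Dbp, 92.6% had a lower r than Per3 over the 13 arrays, and Per3 stood second without that array.

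Per1 and Ciart, repressors both, also moved together. Their r was 0.88 (permutation p = 0.00021, adjusted p = 0.00945), rho was 0.87 (adjusted p = 0.0111), and r lay between 0.85 and 0.93 when each array was left out in turn. Without the 2 arrays farthest from the median of Per1, r was 0.82 (adjusted permutation p = 0.0900). Per1 had r = -0.62 with Dbp over the 13 arrays and 0.26 without OMA1 ASO1 replicate 5, and it had r = 0.38 with Arntl over the 13 arrays and -0.50 without that replicate, so that 1 array turned both signs. Nr1d1 had r = 0.38 with Arntl (adjusted permutation p = 0.739) and -0.09 with Dbp (adjusted permutation p = 0.967), and was not seen to oppose Arntl as Nr1d2 did (r = -0.74, adjusted permutation p = 0.0676). All 13 signals of a gene share the normalization between arrays, and Arntl signals below background have no order among themselves.

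**Figure D4:**
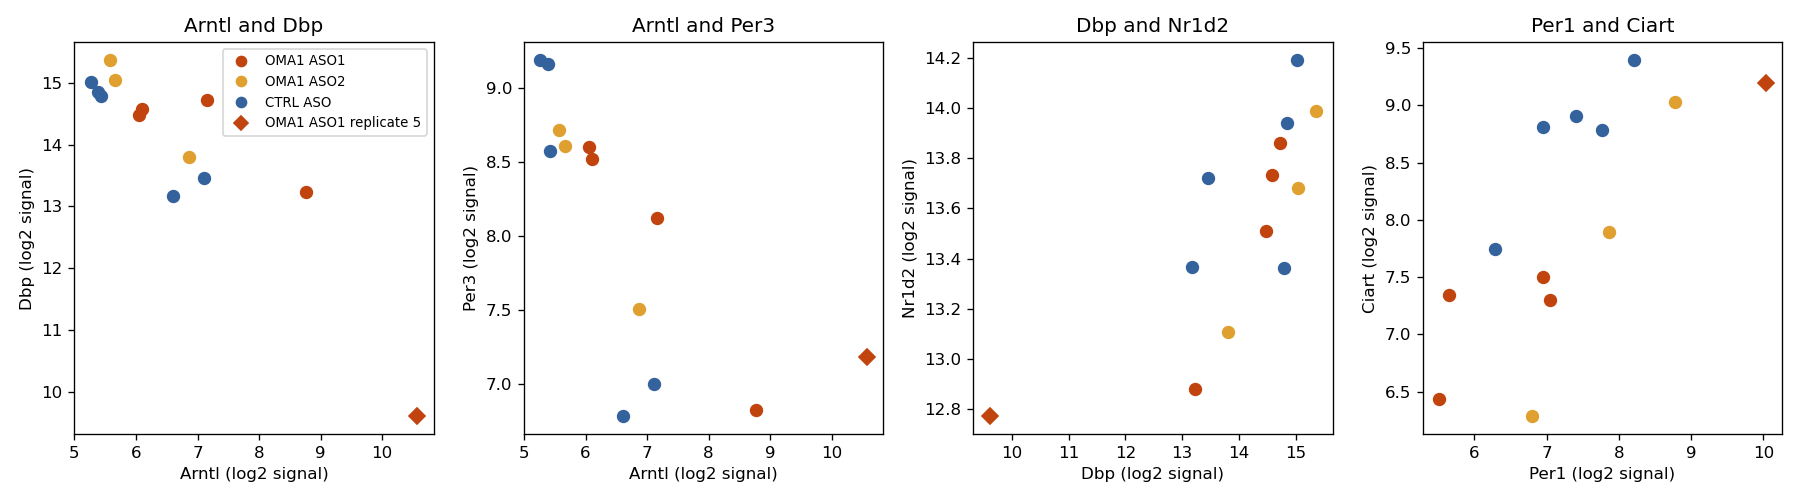
Log2 signals of 4 pairs of clock genes on the 13 arrays, coloured by treatment, with OMA1 ASO1 replicate 5 as a diamond. Dbp and Per3 run largely against Arntl within the treatments, and Ciart follows Per1. Nr1d2 follows Dbp over the 13 arrays (r = 0.75, treatment means removed), less closely within CTRL ASO (r = 0.54).

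A single value per array was formed as the mean of Arntl, Clock and Npas2 minus the mean of Nr1d1, Nr1d2, Dbp, Ciart and Per3. It was set relative to its mean over the 13 arrays, and rises with more of the activators or less of the genes subtracted. Of the latter, Nr1d1 and Ciart did not run against Arntl over the 13 arrays (r = 0.38 and 0.24, treatment means removed). Without OMA1 ASO1 replicate 5 these r were 0.49 and -0.36. The value per array was 1.79, -0.15, -0.25, -0.69 and 2.29 on OMA1 ASO1 arrays 1 to 5, 1.06, -0.48 and -1.50 on OMA1 ASO2 arrays 1 to 3, and 0.26, 0.46, -1.41, -0.75 and -0.61 on CTRL ASO arrays 1 to 5. Every treatment therefore held arrays above the mean and arrays below it, and the ranges overlapped. The 2 highest arrays belonged to OMA1 ASO1, and the lowest array to OMA1 ASO2. Those 2 were OMA1 ASO1 replicate 5, which stood apart, and replicate 1, which carried skeletal muscle markers. Replicates 2 to 4 of OMA1 ASO1 lay between -0.69 and -0.15. The part of that tissue, or of what set replicate 5 apart, in these values was not tested. With Npas2 left out, or with Arntl minus Dbp alone, the same 5 arrays were the highest, which were replicates 1 and 5 of OMA1 ASO1, replicate 1 of OMA1 ASO2 and replicates 1 and 2 of CTRL ASO. Both alternatives are built from genes of the first value, so that they are not a separate check of its order. Whether the hour of collection moved with these values was not tested, since no array has an hour.

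**Figure D5:**
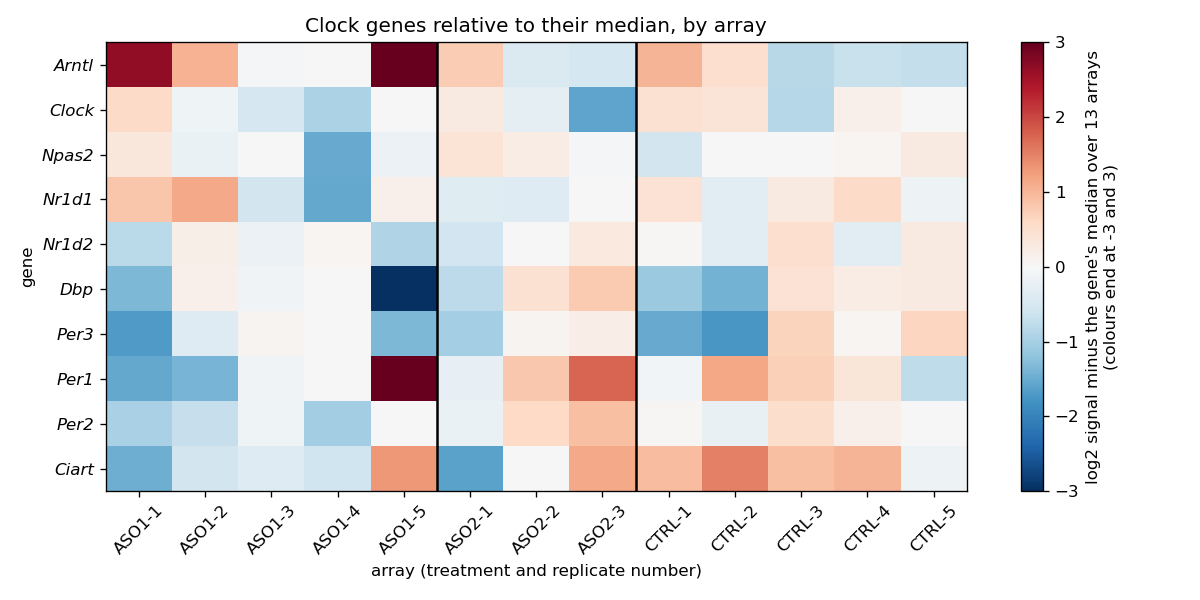
Log2 signal of each clock gene (rows) on each array (columns) minus the median of the gene over the 13 arrays, with OMA1 ASO1, OMA1 ASO2 and CTRL ASO from left to right. Colours end at -3 and 3, and OMA1 ASO1 replicate 5 passes both ends, with Arntl at 10.57 and Dbp at 9.61.

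Other genes of the clock were taken from a list of 25, of which 23 were measured and 15 were above background on all arrays. Of the 23, 0 rose and 0 fell in each of the 4 comparisons at an adjusted p under 0.01 (limma), and the median differences were -0.04 for all OMA1 ASO, -0.08 for OMA1 ASO1 and 0.04 for OMA1 ASO2 against CTRL ASO. The lowest p of the F test belonged to Wee1, a cell cycle kinase with clock-controlled transcription, which was at 9.18, 9.76, 10.37, 10.64 and 9.66 with OMA1 ASO1, at 10.51, 11.09 and 11.09 with OMA1 ASO2, and at 9.30, 10.11, 10.30, 10.28 and 10.31 with CTRL ASO (adjusted p = 0.245). The 3 OMA1 ASO2 arrays were above all 5 CTRL ASO arrays for Wee1, and 9.06% of clusters had no overlap in that comparison. Next came Gsk3b, a kinase that acts on clock proteins (log2 difference -0.48 for OMA1 ASO against CTRL ASO, SE 0.16, adjusted p = 0.158), and Rora, the ROR receptor that activates Arntl (0.59 for OMA1 ASO2 against CTRL ASO, SE 0.25, adjusted p = 0.348). Hlf, a relative of Dbp that also ranked among the 4 lowest, was above background only on OMA1 ASO2 replicates 2 and 3, at 6.65 and 6.67, and no fold is given for it. Cry1 and Cry2, the partners of the Period proteins and named here for that role, differed by 0.18 and 0.11 between OMA1 ASO and CTRL ASO (adjusted p = 0.840 and 0.953).

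Stress hormones and temperature also act on clock genes, and lists of their target genes were read beside them. Of 10 glucocorticoid-induced genes, a list that includes Per1, 0 passed in any of the 4 comparisons over the 13 arrays. Lowest in the F test were Tsc22d3, a mediator of glucocorticoid action, with a difference of 1.23 between OMA1 ASO2 and OMA1 ASO1 (SE 0.33, adjusted p = 0.237), and Cdkn1a, the cell cycle inhibitor p21, with -3.12 between OMA1 ASO and CTRL ASO (SE 0.94, adjusted p = 0.115). The value of Cdkn1a turned on OMA1 ASO1 replicate 5, at 14.86, while the other 7 OMA1 ASO arrays lay at 7.29 to 10.02 and the 5 CTRL ASO arrays at 11.13 to 13.62, without overlap. Without that array Cdkn1a was lower by a log2 difference of -3.91 with OMA1 ASO (SE 0.48, adjusted p = 8.4e-05), -4.21 with OMA1 ASO1 (adjusted p = 0.000186) and -3.52 with OMA1 ASO2 (adjusted p = 0.00260), each against CTRL ASO and past the threshold in limma. In that setting, chosen after the values were seen, Cdkn1a was the only gene of the 10 to pass, and 1.43% of all clusters passed between OMA1 ASO and CTRL ASO. Of 7 temperature-responsive genes measured, 0 passed at 0.01 over the 13 arrays. Hsp90aa1, the inducible HSP90, was at 14.32, 13.21, 13.06, 12.65 and 14.08 with OMA1 ASO1, at 14.04, 12.75 and 12.71 with OMA1 ASO2, and at 15.20, 15.23, 13.94, 15.13 and 14.63 with CTRL ASO (OMA1 ASO against CTRL ASO -1.47, SE 0.31, adjusted p = 0.0163). Its difference was -1.58 (SE 0.30) without OMA1 ASO1 replicate 5 and then passed (limma, adjusted p = 0.00605). Its 2 highest OMA1 ASO1 arrays, its highest OMA1 ASO2 array and its 2 highest CTRL ASO arrays were those with the highest Arntl, and the part of the clock in this gene was not tested. The next lowest, Hsph1, differed by -0.74 (SE 0.44, adjusted p = 0.543).

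OMA1 ASO1 replicate 5 had the highest signal of all 13 arrays for 12.9% of all clusters and the lowest for 14.6%. Among the 10 clock genes it was the highest for 2 (Arntl and Per1) and the lowest for 2 (Dbp and Nr1d2), which is near those shares, and among the 10 glucocorticoid-induced genes it was the highest for 8 and the lowest for 0. Fkbp5, a sensitive glucocorticoid target, was at 15.51 there and at 10.92 to 13.08 on the other 12 arrays, and Sgk1, a kinase gene under the same control, was at 12.18 there and at 7.89 to 9.93 on the others. The rest of that list went the other way. Tsc22d3 was at 9.76 there, below its median of 10.24 on the other 12 arrays, and Pdk4 was at 11.48, below its median of 13.65. Among the other clock genes 8 of 23 were highest there and 3 lowest, and the highest included Bhlhe40, a repressor of the E-box, at 13.93 (11.26 to 12.55 elsewhere), Cry2 at 11.54 (8.48 to 10.97) and Nfil3, which opposes DBP at the D-box, at 7.74 (4.12 to 5.96). Nfil3 was below background on all of the other 12 arrays, so that no fold is read from it. The immediate-early genes Fos and Egr1, named like the genes before them after their values were seen, were at 11.73 and 17.14 there, against 3.55 to 6.87 for Fos and 8.02 to 11.66 for Egr1 on the other 12 arrays. The median of Fos on those arrays, 4.14, was below background. Of the 7 temperature-responsive genes measured, 2 were highest on this array and 1 was lowest, also named after their values were seen. Cirbp and Rbm3 were the highest, at 11.34 (6.87 to 9.87 elsewhere) and 16.37 (12.84 to 14.92). Hsph1 was the lowest, at 9.44 (9.47 to 12.46). The part of hormone, temperature, handling or tissue in these values was not tested.

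The genes most like Dbp and Arntl were ranked by r over the 13 arrays with the treatment means removed, among the named clusters above background on all arrays. Dbp was most like Car8, a relative of the carbonic anhydrases (r = 0.95), Lmod3, an actin nucleator of striated muscle (0.95), Rufy3 (0.95), Fmo1, a monooxygenase (0.94), and Kcnj2, the inward rectifier potassium channel (0.93). It was most opposed to Dnajc3, a chaperone partner in the endoplasmic reticulum (-0.97), Aff4, a scaffold of transcription elongation (-0.97), Eif4a1, the translation helicase (-0.95), Zfp568 (-0.95) and Slc7a1, an amino acid transporter (-0.95). Arntl was most like Eif4a1 (0.96), Zfp568 (0.95), Alpk2 (0.94), Olfml2b (0.93) and Abra (0.93), and most opposed to Idh1 (-0.95), Ube4b (-0.94), Dbp (-0.93), Peak1 (-0.92) and Rgs10 (-0.92). Dbp was thus the third most opposed to Arntl of 7338 clusters over the 13 arrays, and without OMA1 ASO1 replicate 5 it had 0.245% of clusters below it. Without OMA1 ASO1 replicate 5 the r of these genes kept its sign, and lay between 0.75 for Fmo1 and 0.92 for Eif4a1 on the positive side and between -0.96 for Peak1 and -0.84 for Rgs10 on the negative side. The ranking itself changed with that array: without it Marchf7 led for Dbp (0.97, against -0.09 over the 13 arrays) and Vapa for Arntl (0.99, against 0.93). Arntl itself was above background on only 8 of the 13 arrays, and its signals below background have no order among themselves. Its highest signals were on OMA1 ASO1 replicate 5 (10.57) and on replicate 1 (8.76), which carried skeletal muscle markers. The part of that tissue in the ranking was not tested.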

How the data were processed

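Heart RNA of 13 mice was measured on Clariom S Mouse arrays. Per the labels and the methods, the log2 values were deposited after processing in Transcriptome Analysis Console, which corrects for background, normalizes between arrays and summarizes the probes of each cluster, so that a shift shared by a whole array is removed. Of 28846 probe sets, 6640 controls were left out and 22206 clusters were tested without a filter on low signals. Groups follow the treatment in the sample titles. limma 3.58.1 in R 4.3.3 gave the differences from a fit of OMA1 ASO against CTRL ASO and a fit of 3 group means, with Benjamini-Hochberg adjustment over all clusters and a threshold of 0.01. The fits were tested on simulated data. Correlations, permutations and motifs used Python 3.11.15 with SciPy 1.17.1. Named beside the 10 genes were the 4 other clock genes and 2 genes of each further list with the lowest F test p, where none passed, and the 5 genes at each end of the ranking by r. The genes and lists were chosen with earlier results of these data known. The spread, the ranking and the gene lists without OMA1 ASO1 replicate 5, and the values per array without Npas2 or from Arntl and Dbp alone, were alternatives added after the data were seen. Scan dates are not given in the sources used here, and the number of arrays limits the precision.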

Additional observations from a re-analysis of the deposited data

How the results depend on the processing

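In the 4 comparisons and the F test, 0 of the 10 clock genes passed in any of the 103 counts made under other fits, normalizations, filters, weights, covariates, blocks and thresholds or with an array left out, and the lowest adjusted p of a clock gene was 0.0614 (Ciart, OMA1 ASO1 against CTRL ASO, without OMA1 ASO1 replicate 5). Of 836 differences under alternatives 35 changed sign, and the lowest adjusted p among them was 0.800. Array weights turned Per1 (-0.34), Per3 (0.090) and Dbp (0.028) in OMA1 ASO against CTRL ASO and Per3 in OMA1 ASO1 against CTRL ASO (0.014). The Y-linked signal, with a median difference of -2.88 for OMA1 ASO2 against CTRL ASO, turned Per3 (-0.091) and Dbp (-0.0054) in OMA1 ASO2 against CTRL ASO and Nr1d1 in OMA1 ASO2 against OMA1 ASO1 (0.080) when it was a covariate (3 of 4 listed genes measured). Eif2s3y, a Y-linked gene, was at 12.41 and 12.26 on CTRL ASO replicates 1 and 4, and at 11.77 and 12.70 on OMA1 ASO1 replicates 2 and 5. It was at 2.85 to 3.45 on the OMA1 ASO2 arrays, so that the sexes were not balanced in comparisons with OMA1 ASO2. The causes of these changes of sign were not tested. Without OMA1 ASO1 replicate 5, 1 gene in place of 0 passed in OMA1 ASO against CTRL ASO among the glucocorticoid-induced genes (Cdkn1a, also with each OMA1 ASO) and among the temperature-responsive genes (Hsp90aa1).

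With each array left out in turn, the differences of OMA1 ASO against CTRL ASO ranged from -0.38 to 0.27 for Per1, -0.47 to 0.13 for Per3, -0.21 to 0.12 for Npas2, which was below background throughout, and -0.68 to 0.20 for Dbp. Those of OMA1 ASO1 against CTRL ASO ranged from -1.03 to 0.10 for Per1, -0.43 to 0.031 for Npas2 and -0.43 to 0.23 for Nr1d1. Those of OMA1 ASO2 against CTRL ASO ranged from -0.21 to 0.52 for Per3, -0.34 to 0.36 for Arntl and -0.32 to 0.12 for Nr1d2. Those of OMA1 ASO2 against OMA1 ASO1 ranged from -0.47 to 0.91 for Ciart, -0.65 to 0.022 for Nr1d1 and -0.73 to 0.19 for Clock. The correlations ranged from -0.50 to 0.56 for Arntl and Per1, -0.36 to 0.48 for Arntl and Ciart, -0.74 to 0.26 for Per1 and Dbp and -0.34 to 0.20 for Nr1d1 and Dbp.

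The 6 correlated pairs became 2 to 8 with an array left out, with 3 without OMA1 ASO1 replicate 1 or 3 and 2 without OMA1 ASO1 replicate 4 or OMA1 ASO2 replicate 1. They became 2 without the 2 farthest arrays, where r was -0.48 for Arntl and Per1, -0.42 for Arntl and Ciart and 0.10 for Per1 and Dbp, and with treatment means kept r was -0.064 for Arntl and Ciart.

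Over all clusters, a threshold of 0.05 called 506 for OMA1 ASO, 412 for OMA1 ASO1 and 355 for OMA1 ASO2 against CTRL ASO, 51 for OMA1 ASO2 against OMA1 ASO1 and 468 in the F test, against 230, 204, 169, 23 and 225 at 0.01. For OMA1 ASO2 against OMA1 ASO1 the count was 39 with trend and robust, 9 with only these treatments fitted and 14 with the replicate number as a block, and the covariate gave 107 for OMA1 ASO2 against CTRL ASO. The block changed no call of a clock gene, and the numbers do not pair the mice, with correlations of -0.11 to 0.18 between same-numbered arrays and 5 of 13 arrays closest to their own number. With an array left out the counts were 142 (without CTRL ASO replicate 2) to 317 for OMA1 ASO, 96 to 269 (without OMA1 ASO1 replicate 5) for OMA1 ASO2, 8 to 38 for OMA1 ASO2 against OMA1 ASO1 and 150 to 360 in the F test. Each gene had 1 cluster, so that no other cluster could be run. Signals near background limit Arntl, Per1 and Npas2.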
